A study of Drosophila melanogaster with 2 samples.

Results

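Divergent promoter peaks are places where the tagged Trachealess protein was recovered within reach of a start site on each strand. They were taken from anti-GFP ChIP-seq peaks of Drosophila melanogaster embryos of a line carrying trh with GFP at the C-terminus. A peak was counted when it lay on 2L, 2R, 3L, 3R or 4 and its summit, the position of highest enrichment, was within 500 bp of an annotated transcription start site (TSS) on the plus strand and of one of another gene on the minus strand. The rule found 489 such peaks among 1925 autosomal peaks and 2322 peaks in all. Within the list of peaks past IDR, the threshold on reproducibility, it used positions alone. That list itself coincided with a cut on signal, as described below, so signal entered the choice through the list.

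The study held 1 group, trh-GFP whole embryos of mixed sex collected from 0 to 24 h, as 2 biological replicates numbered 1 and 3. Chromatin was sonicated to 200 to 800 bp, and no embryos without the tag were analysed here. Which regulatory sequence drives the tagged gene is not given in the sources used here. Embryos of this age hold all tissues, so few cells with much bound protein and many cells with little cannot be told apart.

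Trachealess (Trh) is a bHLH-PAS transcription factor that specifies the tracheal and salivary duct primordia of the fly embryo. It binds DNA as a dimer with Tango, a partner made in every cell, at a short core sequence, ACGTG. Many fly genes lie head to head, transcribed away from each other from a shared intergenic stretch, and such promoters are frequent among genes that most cells use. Promoters of that kind often carry TATCGATA, the core of the element bound by Dref and BEAF-32.

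The label fitted the annotation. At 472 of the 489 peaks (96.5%) the nearest TSSs pointed away from each other across a gap, and at the other 17 (3.48%) the transcribed regions overlapped. Both genes were protein-coding at 454 peaks (92.8%). A non-coding RNA gene was one of the pair at 29 peaks, a tRNA gene at 4 and a pseudogene at 2. The peaks fell on 464 distinct pairs of 928 genes, and 25 pairs held 2 peaks. The choice of TSS was open at some of them, since 299 peaks (61.1%) had a single possible pair of TSSs in range. Genes known only by a CG number made up 28.4% (95% interval 25.5 to 31.5) of the protein-coding genes in these pairs, against 43.2% (42.3 to 44.1) of all autosomal protein-coding genes.

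The stretches printed here lie wholly between the TSSs, hold no annotated exon, and are given 5′ to 3′ on the plus strand of the dm6 assembly, as read from the Release 6 genome of RefSeq. The first 3 belong to the strongest peak with such a gap on 3R, 3L and 2L, and their capitals mark the 11 bases centred on the summit. They are shown because summits at these pairs sat in A- and T-rich sequence inside a short gap. The Art3/mRpS10 gap is chr3R:15229409-15229664, the Tcs5/CHMP2B gap is chr3L:5139396-5139618 and the Reps/l(2)gd1 gap is chr2L:11106646-11106942.
Art3/mRpS10: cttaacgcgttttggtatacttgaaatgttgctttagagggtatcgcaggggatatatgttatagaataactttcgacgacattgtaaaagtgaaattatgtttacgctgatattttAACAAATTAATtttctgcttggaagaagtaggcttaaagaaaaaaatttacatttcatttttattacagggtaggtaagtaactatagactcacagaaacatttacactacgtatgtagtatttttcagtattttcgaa
Tcs5/CHMP2B: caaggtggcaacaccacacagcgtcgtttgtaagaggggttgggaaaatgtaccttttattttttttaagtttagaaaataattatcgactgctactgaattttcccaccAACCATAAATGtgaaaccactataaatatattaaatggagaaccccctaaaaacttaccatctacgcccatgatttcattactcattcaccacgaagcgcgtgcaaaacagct
Reps/l(2)gd1: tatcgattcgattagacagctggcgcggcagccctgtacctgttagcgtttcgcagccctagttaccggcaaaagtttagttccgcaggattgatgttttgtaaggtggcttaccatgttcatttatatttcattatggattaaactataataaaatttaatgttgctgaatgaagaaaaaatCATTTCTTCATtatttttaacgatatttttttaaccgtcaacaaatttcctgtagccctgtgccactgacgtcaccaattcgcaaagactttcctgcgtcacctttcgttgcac
The G+C content of these stretches was 30.1% for Art3/mRpS10, 38.1% for Tcs5/CHMP2B and 39.1% for Reps/l(2)gd1.

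A second set is shown for the sequences searched at the summits, and the capitals mark the match. The RpS25/CG4820 gap, chr3R:11216288-11216534, holds TATCGATA, which reads the same on both strands. The CG10147/Bulli gap, chr3L:6488425-6488680, holds ACGTG on the minus strand, so that it reads CACGT here. The alphaCOP/CG13919 gap, chr3L:1645200-1645466, holds ACGTG on the plus strand. At both ACGTG gaps the match belongs to the longer form TACGTG.
RpS25/CG4820: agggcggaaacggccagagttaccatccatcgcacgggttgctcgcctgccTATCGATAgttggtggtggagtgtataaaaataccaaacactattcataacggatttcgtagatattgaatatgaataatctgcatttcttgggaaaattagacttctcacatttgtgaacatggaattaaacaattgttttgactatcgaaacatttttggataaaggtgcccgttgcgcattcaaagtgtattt
CG10147/Bulli: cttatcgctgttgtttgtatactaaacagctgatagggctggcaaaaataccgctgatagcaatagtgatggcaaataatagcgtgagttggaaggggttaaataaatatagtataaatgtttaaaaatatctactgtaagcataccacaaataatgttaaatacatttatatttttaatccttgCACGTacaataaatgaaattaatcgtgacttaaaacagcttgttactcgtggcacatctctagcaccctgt
alphaCOP/CG13919: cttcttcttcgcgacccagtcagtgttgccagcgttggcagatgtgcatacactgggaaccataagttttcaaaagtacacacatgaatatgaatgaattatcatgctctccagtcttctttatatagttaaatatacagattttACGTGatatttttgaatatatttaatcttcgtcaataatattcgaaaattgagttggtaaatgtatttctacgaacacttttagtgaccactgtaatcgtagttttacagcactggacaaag
The RpS25 match was centred 7 bp from the summit, which lay 49 bp upstream of the RpS25 TSS.

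The signal is the score that the authors' peak caller gave each peak in the pooled replicates, and peaks are ranked and compared by it only within a list. The replicates' lists were called separately and the scale of the score is not stated, so values of different lists are set side by side and no difference between lists is read from them. Art3, an arginine methyltransferase, and mRpS10, a protein of the small mitochondrial ribosomal subunit, shared a summit of signal 692.7, with 398.8 in replicate 1 and 290.5 in replicate 3. Tcs5, a kinase of the complex that modifies tRNA, and CHMP2B, an ESCRT-III subunit, shared one of 675.7, with 395.9 in replicate 1 and 272.2 in replicate 3. These 2 summits ranked 7 and 9 among all peaks, and each lay close to the middle of its gap.

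At the next 3 pairs the summit was off the middle. CG5611 and Mtl, a small GTPase, had a summit of signal 637.3 that was 123 bp upstream of the CG5611 TSS and 229 bp upstream of the Mtl TSS. Chro, a chromodomain protein of housekeeping promoters, and Ssl1, a TFIIH subunit, had one of 608.2, which lay 99 bp inside Chro. At mRpS23 and CenG1A, an Arf GTPase-activating protein, the summit of 590.2 was 394 bp upstream of mRpS23 and 98 bp upstream of CenG1A. The values in replicate 1 and in replicate 3 were 355.6 and 280.2 at CG5611/Mtl, 349.1 and 259.2 at Chro/Ssl1, and 340.1 and 243.0 at mRpS23/CenG1A.

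The other 10 of the 15 strongest ran from 518.0 at Fbw5/CG9147 to 395.2 at CG13390/CG17294. Between them came Pex11ab/CG8320 (473.0), Atat/Shc (458.0), mRpL23/CG9004 (454.8), Pdrg1/Pal1 (446.8), Mkk4/SLIRP2 (433.5), Reps/l(2)gd1 (432.8), tank/CG12194 (409.5) and CG8372/CG8360 (397.3). Fbw5 encodes an F-box protein, Pex11ab a peroxisome protein, Atat an alpha-tubulin acetyltransferase, Shc an adaptor of receptor tyrosine kinases, and Mkk4 a kinase of the JNK pathway. l(2)gd1 acts in the endosomal traffic of Notch. At the low end stood CG9062/CG13220 with 74.53, CG2931/Rheb with 74.85, fl(2)d/CG13339 with 74.92 and RN-tre/mam with 74.93. Those values are next to the lowest signal of the whole list, 74.42.

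The list past IDR, the threshold on reproducibility, coincided with a cut on this signal. All 2322 of its peaks were in the pooled list, and none of the other pooled peaks had a higher signal than 74.42. A statement that a summit was past IDR is therefore one about its pooled signal.

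Divergent summits of the pooled list passed that cut more often than others. Of 1438 pooled summits that met the divergent rule, 489 were past IDR, or 34.0% (31.6 to 36.5). The share was 15.9% (14.8 to 17.1) of 3808 summits with TSSs in one direction only, and 6.50% (6.08 to 6.94) of 12750 with no TSS within 500 bp, against 10.7% of all 17996 autosomal summits. The intervals are exact binomial (Clopper-Pearson) at 95%, treat peaks as independent and cover counting error only. The 949 divergent summits that did not pass had a median signal of 41.5 (40.3 to 42.6).

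Above the cut, divergent and one-direction peaks had the same median signal. It was 117 (110.5 to 123) over the 489 divergent peaks and 117 (111 to 123) over the 607 one-direction peaks, a ratio of 1.00, with a range of 0.900 to 1.10 from the bounds of the medians. Peaks with no TSS in range had a median of 104, with quartiles of 85.2 and 138. The divergent peaks took 122 of the 385 autosomal peaks with the highest signal (31.7%, 27.1 to 36.6) and 80 of the 385 with the lowest (20.8%, 16.8 to 25.2). Their share of all 1925 autosomal peaks was 25.4% (23.5 to 27.4). Both sets of 385 were drawn from all of these, also those with no TSS in range. They therefore do not compare divergent with one-direction peaks. With 250 bp in place of 500 bp the ratio was 1.12 (1.01 to 1.22).

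The divergent peaks made up 44.6% (41.6 to 47.6) of the 1096 autosomal promoter peaks and 25.4% (23.5 to 27.4) of all 1925 autosomal peaks. By arm they were 118 of 469 peaks on 2L (25.2%), 104 of 399 on 2R (26.1%), 116 of 511 on 3L (22.7%) and 151 of 535 on 3R (28.2%). The intervals of the 4 arms overlapped. On 4 none of the 11 peaks was divergent, which allows a share of up to 28.5%.

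The spacing of the TSSs was concentrated between 200 and 400 bp. Its median was 287 bp (270.0 to 298), with quartiles of 207 and 383 bp and a range of −871 to 747 bp, where a value below 0 is an overlap. Of the 472 head-to-head peaks, 161 (34.1%) had a spacing above 200 and up to 300 bp and 111 (23.5%) one above 300 and up to 400 bp, and classes given as 200 to 300 bp are meant in this way. The 100 bp classes below held 47 and 49 peaks. The rule limits the spacing to 1000 bp, since both TSSs must be within 500 bp of the summit.

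Among the closest protein-coding pairs were SerRS, seryl-tRNA synthetase, with CG17260 at 8 bp, and E(z), the methyltransferase of Polycomb repressive complex 2, with Cnep1r2 at 16 bp. The signal was 131.4 at SerRS/CG17260 and 177.1 at E(z)/Cnep1r2. The widest were CG2246/CG31021 at 717 bp, app/CG32100 at 687 bp and Nepl19/Nepl20, a pair of neprilysin-like genes, at 670 bp. Their signals were 103.9, 122.7 and 85.09. Over all head-to-head peaks, the median signal was 123 (99.6 to 135) at spacings up to 100 bp and 103 (87.8 to 114) above 500 bp. The quartiles were 88.3 and 188 in the close class and 84.4 and 125 in the wide class, so their signals overlapped.

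The 3 deepest overlaps all had a non-coding gene. lncRNA:CR43918 and Dp, the partner of E2F, had a spacing of −871 bp, and the summit lay 443 bp inside the non-coding gene and 428 bp inside Dp. The spacing was −461 bp at Pdi/asRNA:CR45396 and −332 bp at asRNA:CR45738/Sqor. The strongest peak at a pair with a non-coding gene was that of eIF6, a factor in ribosome assembly, and asRNA:CR45928, with a signal of 334.5 and a spacing of 29 bp. Over the 35 peaks with a non-coding gene the median spacing was 197 bp (60 to 324) and the median signal 113 (90.7 to 129). Those with 2 protein-coding genes had a median signal of 117 (110.5 to 124).

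**Figure D1:**
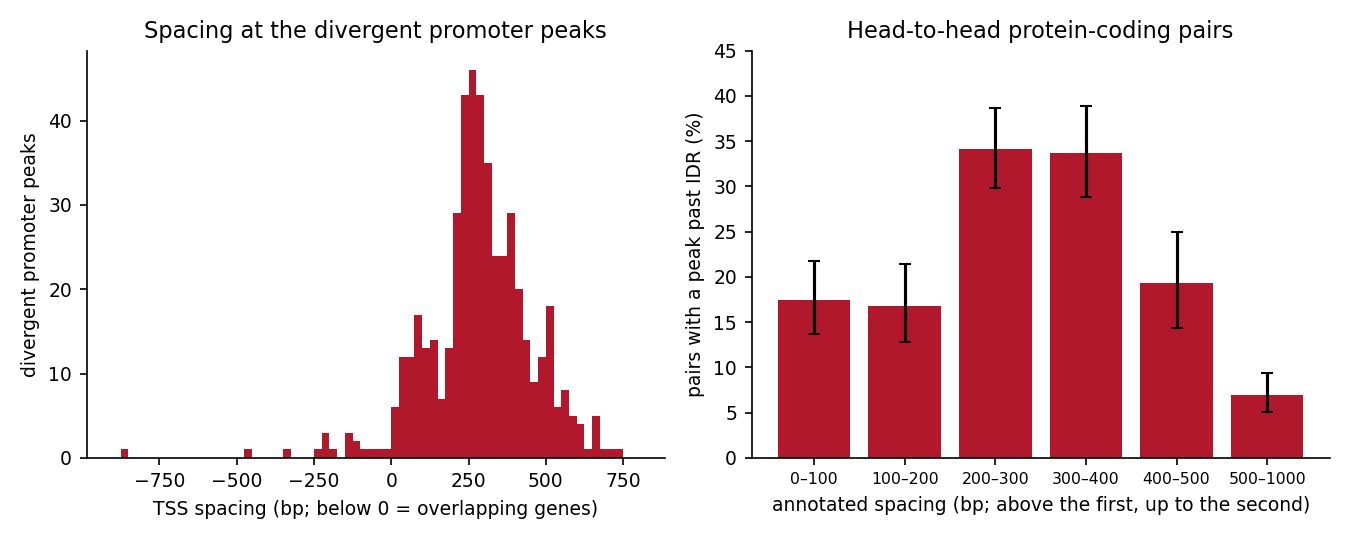
TSS spacing of the 489 divergent promoter peaks in bins of 25 bp (left), and the share of annotated head-to-head protein-coding pairs with a peak past IDR within 500 bp of both genes, by annotated spacing (right; bars are percent, error bars 95% exact binomial intervals). Peaks gather at spacings of about 200 to 400 bp, and the classes of 200 to 300 bp and 300 to 400 bp stand at 34.1% and 33.7%, above the others.

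The same spacings held a peak most often among all annotated pairs. Of 2921 autosomal pairs with head-to-head TSSs up to 1000 bp apart, 504 had a summit past IDR within 500 bp of both genes, or 17.3%. Among 2264 pairs of protein-coding genes the count was 472 (20.8%, 19.2 to 22.6). It was 156 of 457 pairs (34.1%, 29.8 to 38.7) at 200 to 300 bp and 118 of 350 (33.7%, 28.8 to 38.9) at 300 to 400 bp. Closer pairs had fewer, with 63 of 361 (17.5%, 13.7 to 21.8) at up to 100 bp and 52 of 310 (16.8%, 12.8 to 21.4) at 100 to 200 bp. At 400 to 500 bp the share was 19.3% (14.4 to 25), and at 500 to 1000 bp 6.99% (5.02 to 9.43).

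The rule leaves more room for a summit at close pairs than at wide ones, so the low share above 500 bp is partly set by it. With a limit of 1000 bp to each TSS the shares were 19.4%, 19.0%, 36.3%, 35.7%, 21.1% and 15.8% from the closest to the widest class. The pairs at 200 to 400 bp still had the highest shares. Pairs with a peak had a median spacing of 279.5 bp (263 to 295), against 313 bp (299 to 329) for pairs without one.

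Genes in head-to-head pairs also had a peak at a TSS more often than other genes. Of 4269 protein-coding genes in such pairs, 1008 had a summit within 500 bp of a TSS (23.6%, 22.3 to 24.9). Among all 11749 autosomal protein-coding genes 1443 did, or 12.3%, and among the 7079 in no head-to-head pair 387 did (5.47%, 4.95 to 6.02). One summit can serve both genes of a pair, so these genes are not independent.

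Summits lay inside the gap at most head-to-head pairs. They were between the TSSs at 390 of 472 peaks (82.6%, 78.9 to 85.9), 48 lay inside the minus-strand gene and 34 inside the plus-strand gene. Of the positions that the 500 bp rule allows at these pairs, 46.6% on average lie between the TSSs. At spacings of 200 to 300 bp the summit was between them at 148 of 161 peaks (91.9%, 86.6 to 95.6), where 34.3% of allowed positions are. At 300 to 400 bp it was between them at 106 of 111 (95.5%, 89.8 to 98.5), where 53.7% of allowed positions are.

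At close pairs the gap is a smaller part of the allowed positions, and a smaller share of summits lay in it. At up to 100 bp the summit was in the gap at 6 of 47 peaks (12.8%, 4.83 to 25.7), where 6.16% of allowed positions are, and at 100 to 200 bp at 26 of 49 (53.1%, 38.3 to 67.5), where 17.7% are. Above 500 bp the rule itself places every summit in the gap. The median spacing was 309 bp (298 to 331) where the summit was in the gap and 100 bp (78.0 to 125) where it was inside a gene. The median signal was 117 for summits in the gap, with quartiles of 89.3 and 171, and 120.1 for those inside a gene, with quartiles of 89.7 and 168.

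Within the gap the summits favoured neither strand. The plus-strand TSS was the nearer one at 202 of 390 (51.8%, 46.7 to 56.9). The central 1 of 3 equal parts of the gap held 192 of them (49.2%, 44.2 to 54.3). The median distance from the middle was 50.8 bp, and it was 41.5 bp at spacings of 200 to 300 bp, where the TSSs were a median of 127 bp from it. The nearer TSS was at a median of 60 bp from the summit at up to 100 bp of spacing and 54 bp at 100 to 200 bp. In the wider classes it was at 85.0, 113, 132 and 177 bp, so that distance grew with the spacing. The middle of the gap was a median of 127, 174, 219.5 and 276 bp from the TSSs in those classes. A summit in the gap cannot be farther than that from its nearer TSS, so the growth is partly set by the spacing itself.

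**Figure D2:**
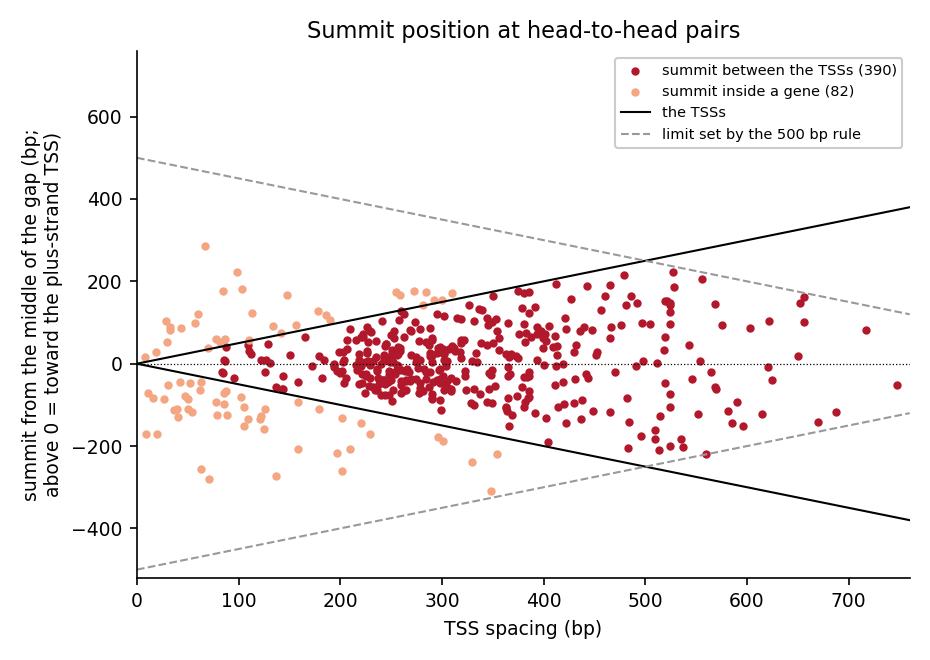
Summit position, in bp from the middle of the gap, against TSS spacing in bp for the 472 head-to-head peaks; solid lines are the TSSs and dashed lines the farthest positions the rule allows. From 200 to 400 bp most points lie between the solid lines, 148 of 161 and 106 of 111, while 6 of the 47 points at up to 100 bp do.

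Compared with one-direction peaks, the divergent summits lay nearer a TSS. The nearest TSS was at a median of 94.0 bp (87.0 to 100) for divergent peaks and 182 bp (168 to 203) for one-direction peaks. A summit 50 to 200 bp upstream of it was found at 316 of 489 divergent peaks (64.6%, 60.2 to 68.9) and at 242 of 607 one-direction peaks (39.9%, 35.9 to 43.9). A divergent peak has at least 2 TSSs by the rule, of which the nearer is taken, and the part this plays was not tested. At the limit of the rule stood crp/pkaap with its farther TSS at 499 bp, CG3735/Taldo at 489 bp and Spase22-23/mask at 487 bp. Just outside it stood CG10324/CCT3 at 502 bp, Acbp1/Piezo at 507 bp and CG2201/lncRNA:CR43148 at 509 bp. At Acbp1/Piezo this was a weaker summit, of signal 75.03, while another of 177.9 met the rule. A limit 100 bp wider would have added 32 peaks.

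Genes of cytosolic ribosomal proteins, which build the ribosome, had the highest share with a peak at a TSS among the 15 lists looked up. Of 72 on the autosomes, 46 had a peak at a TSS (63.9%), against 12.3% of all autosomal protein-coding genes. Of the 44 in head-to-head pairs, 33 had one (75%, 59.7 to 86.8), against 23.6% of all such genes. They accounted for 27 divergent peaks at 26 genes, with a median signal of 169.1, against 117 over all divergent peaks. The strongest were Ripalpha/RpL7 with 386.8, RpS27/Nup37 with 380.7, Nelf-E/RpL14 with 282.5 and RpL28/eIF1 with 267.3. The values in replicate 1 and in replicate 3 were 237.7 and 144.8 at RpL7, 251.1 and 126.0 at RpS27, 192.5 and 88.8 at RpL14, and 164.8 and 98.8 at RpL28.

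At these pairs the summit lay beside the ribosomal protein gene. It was nearer that gene's TSS than the partner's at 23 of 27 peaks (85.2%, 66.3 to 95.8), a count made after the positions were seen. The median distance was 56.0 bp to the TSS of the ribosomal protein gene and 192 bp to that of the partner. At CG12929/RpL31 the summit was 24 bp upstream of RpL31 and 455 bp upstream of CG12929. At BCAS2/RpL4 it was 41 bp upstream of RpL4 and 424 bp upstream of BCAS2. Exceptions were RpL19/CG3776, Dref/RpL13 and the weaker of 2 peaks at RpL28/eIF1.

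The summit was nearer the TSS of a mitochondrial ribosomal protein gene at 3 of 14 peaks (21.4%, 4.66 to 50.8), with a median of 192 bp to it and 129.5 bp to the partner's. This interval does not overlap that of the cytosolic genes, but it includes 50%. Other lists had similar counts, with 5 of 16 peaks for RNA polymerase and general factors (31.2%), 3 of 10 for oxidative phosphorylation (6.67 to 65.2%) and 1 of 4 for the proteasome. Of 50 mitochondrial ribosomal protein genes in head-to-head pairs 16 had a peak (32.0%, 19.5 to 46.7), an interval that includes the 23.6% of all head-to-head genes. The leading ones were mRpS10 with 692.7, mRpS23 with 590.2, mRpL23 with 454.8 and mRpL24/betaggt-I with 214.5.

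Of 11 genes of insulator and housekeeping promoter factors in head-to-head pairs, 8 had a peak at a TSS (72.7%, 39.0 to 94.0). Chro led with 608.2, followed by Cp190, an insulator protein, with 286.0, M1BP, which binds a promoter motif, with 153.8, and Dref with 128.2. Dref shares its peak with RpL13, 22 bp from the Dref TSS and 62 bp from the RpL13 TSS. M1BP had no summit within 100 bp in the replicate 1 list.

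RNA polymerase subunits, Mediator and general factors had a peak at 17 of 51 genes in such pairs (33.3%, 20.8 to 47.9). elm/MED27 had 242.9, CG11247/Polr2H 204.6, CG10584/Polr3E 203.2 and CG12321/MED17 189.2. Aminoacyl-tRNA synthetase genes had one at 7 of 20 (35.0%, 15.4 to 59.2), led by Hem/IleRS with 203.7 and GluProRS/AP-1sigma with 157.7. Translation factors had one at 8 of 25 (32.0%, 14.9 to 53.5), led by eIF4EHP/CG18428 with 335.8 and eIF6. The intervals of these 3 lists include the 23.6% of all head-to-head genes.

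The same held for oxidative phosphorylation with 11 of 42 genes (26.2%, 13.9 to 42.0), the proteasome with 4 of 19 (21.1%, 6.05 to 45.6) and DNA replication with 4 of 20 (20%, 5.73 to 43.7). TppII/ND-MWFE, with a subunit of complex I, led the first with 155.8, and Hat1/Rpn5 the second with 154.6. The strongest replication peak was at CG13933/PolD2 with 241.7. RPA1 and Mcm2, both replication genes, faced each other across 519 bp with peaks of 108.8 and 79.01. Mitochondrial import had 2 of 3 genes with a peak, at CG8229/Tom7 (115.6) and Tim10/Ppcdc (80.93).

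Splicing genes had 2 of 26 (7.69%, 0.946 to 25.1), with 23.6% again in the interval, at snRNP-U1-C/gukh with 122.5 and Sf3b6/Tnpo with 118.8. Histone genes had 1 of 91 (1.10%, 0.0278 to 5.97), against that 23.6%, namely His2Av, a histone variant gene that faces ball, with 128.3. Most histone genes are near-identical copies in a repeated cluster, so they are not independent, as the interval takes them to be. Whether a peak can be called in such copies was not tested. For the tracheal lists the numbers are small. Of the tracheal regulators in head-to-head pairs, 2 of 4 had a peak at a TSS (6.76 to 93.2%). The counts were 1 of 3 for bHLH-PAS genes (0.840 to 90.6%) and 2 of 6 for tracheal tube genes (4.33 to 77.7%). All of these intervals include 23.6%, so they do not tell these genes from other head-to-head genes. None of the divergent peaks had a tracheal regulator or a bHLH-PAS gene in its pair, and 2 had a gene of tracheal tubes. These were shg/cpa, with the gene of E-cadherin, at 98.70 and Sps1/conv, with a gene needed for tube length, at 92.86.

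**Figure D3:**
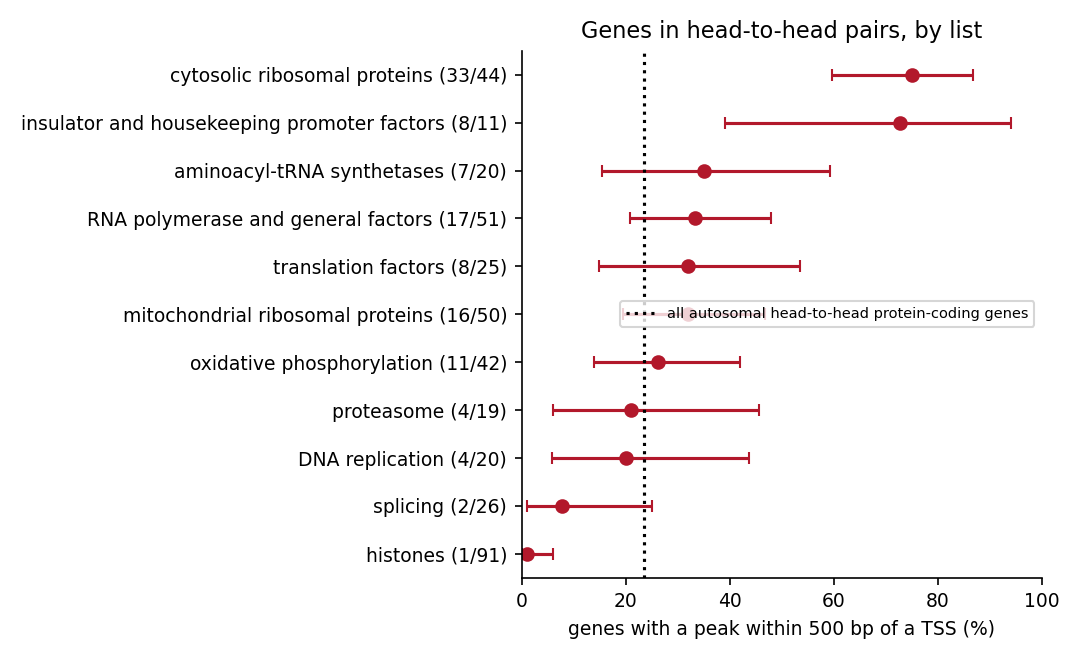
Share in percent of the genes of each list that lie in autosomal head-to-head pairs and have a peak within 500 bp of a TSS, with 95% exact binomial intervals; lists of at least 10 such genes are shown with their counts. Cytosolic ribosomal proteins (33 of 44) and insulator and housekeeping factors (8 of 11) lie wholly above the dotted line at 23.6% for all such genes, and histones (1 of 91) below it. The histone genes are mostly copies in a repeated cluster and are not independent.

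Of the sequences searched, the core of Trh and Tango had about the share in divergent summits that it had in promoters at large. TATAAA was more frequent than in promoters at large and GAGAG less. For GAGAG the interval overlapped that of head-to-head pairs without a peak. Within 50 bp of the summit, ACGTG was found on either strand at 34 of 489 divergent peaks (6.95%, 4.86 to 9.58), at 48 of 607 one-direction peaks (7.91%, 5.89 to 10.3) and at 784 of all 11749 promoters (6.67%). In windows centred 400 bp from the divergent summits it was found in 104 of 978 (10.6%, 8.77 to 12.7). The longer TACGTG was found at 10 divergent peaks (2.04%, 0.985 to 3.73), at 2.47% of one-direction peaks and at 1.63% of all promoters. The matches with the highest signal were at Ripalpha/RpL7 (386.8, with 2 copies), CG10147/Bulli (313.5), Bdp1/CG6565 (312.0), alphaCOP/CG13919 (277.7) and CG13933/PolD2 (241.7). Bdp1 encodes a TFIIIB subunit and alphaCOP a coat protein of the Golgi.

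TATCGATA was found at 17 divergent peaks (3.48%, 2.04 to 5.51), at 22 one-direction peaks (3.62%, 2.29 to 5.44) and at 1 of 829 peaks with no TSS in range (0.121%). Without replicate 3, over the highest peaks of replicate 1, the share at divergent peaks was 5.29% (3.52 to 7.61). All promoters had it in 254 of 11749 windows (2.16%), and the middles of head-to-head pairs without a peak in 88 of 1792 (4.91%, 3.96 to 6.02). Matches of high signal were at the ribosomal protein genes of RpL28/eIF1 (267.3), RpL41/NaCP60E (240.3) and RpS25/CG4820 (196.3). They were centred 4 bp from the summit at RpL28, 29 bp at RpL41 and 7 bp at RpS25. The match at l(2)37Bb/Rpn3 (140.6) was 41 bp away.

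CGATA, which is part of TATCGATA, was found at 119 divergent peaks (24.3%, 20.6 to 28.4), at 19.8% of one-direction peaks (16.7 to 23.2) and at 19.5% of all promoters. TATAAA was found at 146 divergent peaks (29.9%, 25.8 to 34.1), against 20.4% (17.3 to 23.9) of one-direction peaks and 18.8% of all promoters. GAGAG, the site of GAGA factor, was found at 6.54% (4.52 to 9.11), against 11.4% (8.95 to 14.2) and 13.8%. GGTCACAC, bound by M1BP, was found at 1.43% (0.577 to 2.93), against 0.494% of one-direction peaks and 1.29% of all promoters. In the middles of head-to-head pairs without a peak it was found at 3.07% (2.32 to 3.98), and CGATA at 24.1% (22.1 to 26.2). Those windows are centred on the gap and not on a summit. The E-box CAGCTG was found at 3.68% of divergent peaks, against 5.09% of all promoters, and the E-box CACGTG at 0.818%, against 0.919%. GGTATTTT, part of a housekeeping promoter motif, was found at 1.84%, against 1.57%. The pyrimidine-rich initiator form TTCTTTT was found at 6.95%, against 5.27%, and the initiator core TCAGT at 15.1%, against 16.3%. A match is only a match of letters.

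Base composition also differed between these sets of windows. The median G+C content within 50 bp of the summit was 30.7% (29.7 to 31.7) at divergent peaks, 33.7% (32.7 to 34.7) at one-direction peaks and 32.7% at peaks with no TSS in range. Promoters as a whole had 36.6%. The windows 400 bp to each side of the divergent summits had 48.5%. The middles of head-to-head pairs had 27.7% where a peak was called and 33.7% where none was. The part of base composition in the sequence counts, and in the recovery of fragments, was not tested.

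**Figure D4:**
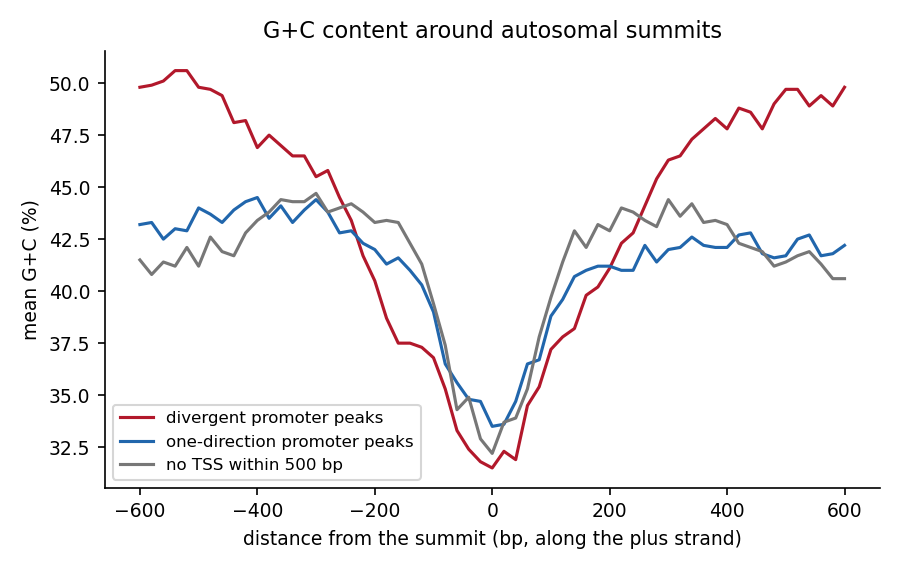
Mean G+C content in percent, in bins of 20 bp, against the distance from the summit in bp along the plus strand, for divergent, one-direction and other autosomal peaks. The curve of the divergent peaks has its low point of 31.5% at the summit and reaches 49.8% at 600 bp on both sides, while the one-direction curve ends at 43.2% and 42.2%.

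Both replicates entered the selection of the peaks, and most divergent peaks were found in each. Among the 2322 highest-signal peaks of each replicate, 332 of the 489 had a summit within 100 bp in both (67.9%, 63.6 to 72.0). That is the share of all autosomal peaks, 67.9%, and the share for one-direction peaks was 71.0% (67.2 to 74.6). In the full lists, 460 had one in both (94.1%), 11 had none in replicate 1, 18 had none in replicate 3, and none lacked both. The summits of the replicates were a median of 25 bp apart (21.0 to 28.0). Of 367 summits in a gap that both replicates held, 355 lay between the same TSSs in both.

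The median score of the divergent peaks was 72.0 (69.8 to 75.5) in the replicate 1 list and 45.2 (43.1 to 47.1) in the replicate 3 list, which cannot be compared because the scale and depth behind each are unknown. Across the 460 peaks, which share both libraries, the log2 signals had Pearson's r of 0.779 and Spearman's rho of 0.707. The ranks differed most at CG9008/p38b, with 59.8 in replicate 1 and 13.1 in replicate 3. Next came mor/Hel89B with 60.2 and 13.5, rho-7/CG8298 with 70.8 and 14.1, and Mical/CG3909 with 61.6 and 14.6, each with replicate 1 first. All 4 had ranks of 1044 to 1466 within the replicate 1 list and of 17302 to 23075 within the replicate 3 list, and their pooled signals of 75.33 to 86.21 were near the cut. At CG9008/p38b and rho-7/CG8298 these values belong to the weaker of 2 summits of the pair. The stronger summit at rho-7/CG8298, of pooled signal 155.2, had 104.0 in replicate 1 and 53.4 in replicate 3.

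**Figure D5:**
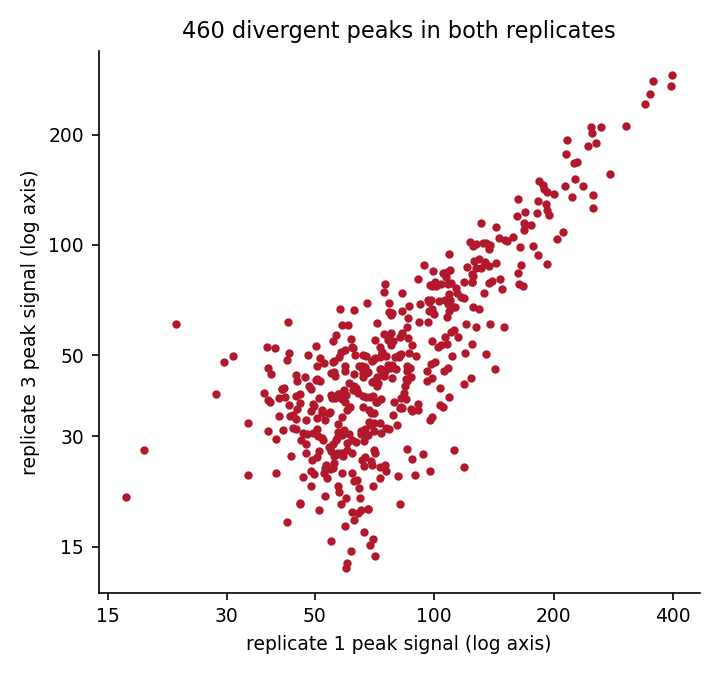
Peak signal in replicate 1 (horizontal log axis) and in replicate 3 (vertical log axis), each from its own list, for the 460 divergent peaks with a summit within 100 bp in both full lists. The signals rise together, with Pearson's r of 0.779 on the log2 scale, and scatter more at the weak end.

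Of the 25 pairs with 2 peaks, 24 had their summits within 300 bp of each other. The stronger summit was at the lower coordinate at 23 of those 24. At Cp190/CG4338 the signal was 286.0 at the lower coordinate and 95.15 at the higher one, 210 bp away. At RpL28/eIF1 it was 267.3 and 122.9, 203 bp apart. SC35/eRF3 was the exception, with 84.44 and 91.92. The distances ran from 199 to 247 bp, and 20 of the 24 were between 190 and 220 bp.

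Second summits of this kind were found beyond the divergent peaks. Among all autosomal peaks past IDR, 73 neighbouring summits were within 300 bp, and the weaker one was at the higher coordinate in 71 (97.3%, 90.5 to 99.7). The share was 85.5% of 2302 in the replicate 1 list and 85.1% of 1660 in the replicate 3 list. What produces it was not tested. With the stronger summit alone kept there were 465 divergent peaks, of which 82.6% of the head-to-head ones had the summit between the TSSs.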

How the data were processed

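Peak lists of 2 biological replicates were used as deposited for dm6, one for each replicate, one of the pooled replicates and one past IDR. Each was called against a control that both replicates share, per the deposited file lists. Which aligner and caller were used, and where the IDR threshold lay, is not given in the sources used here. The signal is the score of each peak in the authors' own calling, with no scale stated. The deposited −log10 q values ran from 2.80 to 3.48 past IDR and served only as a description. No read counts are in these lists, so the depth is unknown.

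TSSs were those of all transcripts in Ensembl release 115 (BDGP6) without transposable elements, whose coordinates were compared with the lists. Of the TSSs within 500 bp, the nearest on each strand made the pair. Annotated head-to-head pairs had TSSs up to 1000 bp apart. Motifs were looked for on either strand within 50 bp of a summit. Promoter windows were centred 100 bp upstream of a gene's start. Shares have 95% Clopper-Pearson intervals and medians have binomial order-statistic intervals. Python 3.11.15, numpy 2.4.6 and scipy 1.17.1 were used, and the assignment of peaks was tested on simulated data. No significance test was run.

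The members and the gene and motif lists were chosen with earlier results of these data known. Named pairs were the 15 strongest and 4 weakest peaks, up to 4 per gene list by signal, 3 at each extreme of spacing and overlap, the 5 strongest with TATCGATA or ACGTG, the 4 whose replicate ranks differed most, those nearest the 500 bp limit and the strongest with a non-coding gene. The RpL4, RpL31 and SC35/eRF3 pairs and the exceptions beside them were named after their values were seen. Some pairs that this rule selects are not reported here.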

Additional observations from a re-analysis of the deposited data

How the results depend on the processing

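Over 10 results, 51 of 72 alternatives stayed within the interval of the value reported, or within 1.5 times for the count of peaks, and 21 did not. A change of direction was not assessed, since counts, shares and ratios cannot change sign. With 250 bp to a TSS in place of 500 bp there were 308 divergent peaks, 35.0% of promoter peaks, with a median spacing of 246 bp, a signal ratio of 1.12, peaks at 11.8% of head-to-head pairs and 43.1% of pooled divergent summits past IDR. With 1000 bp the spacing was 302 bp, 21.1% of pairs had a peak and 26.6% of pooled divergent summits were past IDR. The TSS set to each gene's 5' end gave a divergent share of 48.5%. The stronger 50% of the peaks held 268 divergent peaks and reached 10.1% of pairs. Protein-coding pairs alone had a share of 20.8%, and pairs up to 500 bp apart one of 21.5%. With the closest TSS pair, 77.2% of summits were between the TSSs. Matching within 50 bp gave 55.4% in both replicates, within 250 bp 76.3%, and in the full lists 94.1%. TATCGATA was found within 100 bp of 9.41% of summits and within 25 bp of 1.23%. Several of these follow from the alternative itself, which counts fewer peaks, pairs or bases. The cause of the others was not tested.

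Leaving out a replicate means using the 2322 highest peaks of the other. It gave 433 to 510 divergent peaks, a divergent share of 42.5% to 45.2%, a spacing of 286 to 288 bp, 82.6% to 84.7% of summits between the TSSs, a ratio of 1.01 to 1.04, 15.7% to 17.9% of pairs with a peak, 3.70% to 5.29% with TATCGATA and 78.3% to 89.3% of ribosomal protein gene peaks nearer that gene. Keeping the stronger of neighbouring summits, and all alternatives for the ribosomal protein genes, were chosen after seeing the data. For those genes the alternatives other than leaving out a replicate gave 80.0% to 88.5%. No paired analysis was possible because there is 1 group. With 2 replicates and no depth, the intervals describe these lists and not the spread between embryo collections.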
